A study of Mus musculus with 6 samples.

Results

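The 10 genes described here encode the cyclins, cyclin-dependent kinases and inhibitors that act in G1. They are the D cyclin genes *Ccnd1*, *Ccnd2* and *Ccnd3*, the E cyclin genes *Ccne1* and *Ccne2*, the kinase genes *Cdk2*, *Cdk4* and *Cdk6*, and the Cip/Kip inhibitor genes *Cdkn1b* and *Cdkn1c*. They were taken by symbol from a table of 24402 loci, and each of the 10 had 1 locus there. The table comes from RNA-Seq of whole lungs of C57BL/6 mouse embryos at 12.5 *dpc* (*days post coitus*). Controls were wild type (3 libraries), and *Yap* mutants had the genotype Yap-flox/flox; Shh-Cre/+ (3 libraries). In these mutants, Cre made from the *Shh* locus deletes *Yap* in the lung epithelium and leaves it in the mesenchyme. The controls are labelled wild type and carry no Cre allele by that label, so an effect of the Shh-Cre allele and an effect of *Yap* deletion cannot be told apart. The table gives 1 value per genotype in FPKM (fragments mapped to a transcript, relative to its length and to all mapped fragments), which the authors summarised over the 3 libraries. No spread between libraries can be had from these values, their depth is unknown, and no difference below has a replicate check or a test.

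D cyclins are made in response to growth signals and bind CDK4 or CDK6. These kinases start the phosphorylation of the retinoblastoma protein and its relatives, which hold back the E2F transcription factors. Released E2F induces the E cyclins, which bind CDK2 and carry the cell into S phase. p27 and p57, the products of *Cdkn1b* and *Cdkn1c*, bind cyclin-CDK complexes and restrain CDK2. In the embryonic lung, growth signals between mesenchyme and epithelium keep the epithelial buds cycling while branches form.

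Upstream sequences of *Ccne1*, *Cdk4* and *Cdk2* are shown because they differ in the short motifs they hold for factors that act on G1 genes. RefSeq promoters (GRCm38.p6) were matched by symbol for 6 of the 10 genes, *Ccnd3* having 2 of the 7 windows. Each window holds the 250 bases before a transcript start, written 5′ to 3′ on the strand of the gene. Capitals mark the GC box GGGCGG bound by Sp1, the E-box CACGTG bound by MYC, the E2F site (TTTGGCGC, TTTCGCGC, TTTCCCGC or TTTGCCGC) and the TEAD core GGAATG. Both strands were searched. The windows lie at chr7:38107491-38107740 (minus strand) for *Ccne1*, chr10:127063285-127063534 (plus strand) for *Cdk4* and chr10:128705052-128705301 (minus strand) for *Cdk2*.
Ccne1: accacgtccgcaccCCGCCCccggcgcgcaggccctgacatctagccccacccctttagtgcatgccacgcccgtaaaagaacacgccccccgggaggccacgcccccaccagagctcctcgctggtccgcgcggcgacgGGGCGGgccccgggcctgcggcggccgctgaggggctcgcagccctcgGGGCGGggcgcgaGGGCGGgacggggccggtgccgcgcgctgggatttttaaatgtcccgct
Cdk4: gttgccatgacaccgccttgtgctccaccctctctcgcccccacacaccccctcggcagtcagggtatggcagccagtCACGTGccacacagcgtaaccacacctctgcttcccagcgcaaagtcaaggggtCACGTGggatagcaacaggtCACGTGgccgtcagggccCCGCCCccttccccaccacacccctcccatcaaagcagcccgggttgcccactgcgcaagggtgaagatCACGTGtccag
Cdk2: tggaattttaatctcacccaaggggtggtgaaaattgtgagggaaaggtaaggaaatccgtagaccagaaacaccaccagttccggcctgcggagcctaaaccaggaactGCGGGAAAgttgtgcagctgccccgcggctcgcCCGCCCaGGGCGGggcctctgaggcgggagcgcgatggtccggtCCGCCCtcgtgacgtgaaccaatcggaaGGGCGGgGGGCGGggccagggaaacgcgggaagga
The *Ccne1* window held 4 GC boxes, the most distant beginning 236 bases before the start, and had a GC content of 76.0%. The *Cdk4* window held 4 E-boxes, which began 172, 118, 98 and 11 bases before the start, and 1 GC box. Only 7 of 32851 promoter windows of the same length held as many E-boxes, and 6.02% held at least 1. *Cdk2* had 5 GC boxes and the 1 E2F site found, which began 140 bases before the start. Only the E2F spellings given above were searched, so a site spelled otherwise was not counted in any window. An E2F site was found in 1.86% of all windows, a GC box in 32.7% and a TEAD core in 12.6%. Among the members' windows, the TEAD core occurred once, 17 bases before the downstream start of *Ccnd3*. Sites more than 250 bases before a start, or in enhancers, were not searched. A window without a TEAD core thus does not show a gene without one. The paper names *Ccne1* a YAP target with a TEAD-binding site, and reports YAP enriched at its promoter in lungs of a later stage. *Ccnd1*, *Ccnd2*, *Ccne2* and *Cdkn1c* had no entry. The motifs and the sequences shown were chosen after the values were seen. A match of letters is a description of the window and shows no binding.

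The members covered a wide range of levels, and their order was the same in both genotypes. *Cdk4* was highest, at 552 FPKM in control against 499 FPKM in mutant lungs, and its control value ranked 136 among the 24402 loci. It was followed by *Cdkn1c*, *Ccnd3*, *Ccnd2*, *Ccnd1*, *Cdk2*, *Ccne1*, *Cdkn1b* and *Ccne2*. *Cdk6* was lowest, at 6.30 FPKM in control against 6.15 FPKM in mutant lungs. Which neighbours in this order differ beyond the spread between libraries is unknown.

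**Figure D1:**
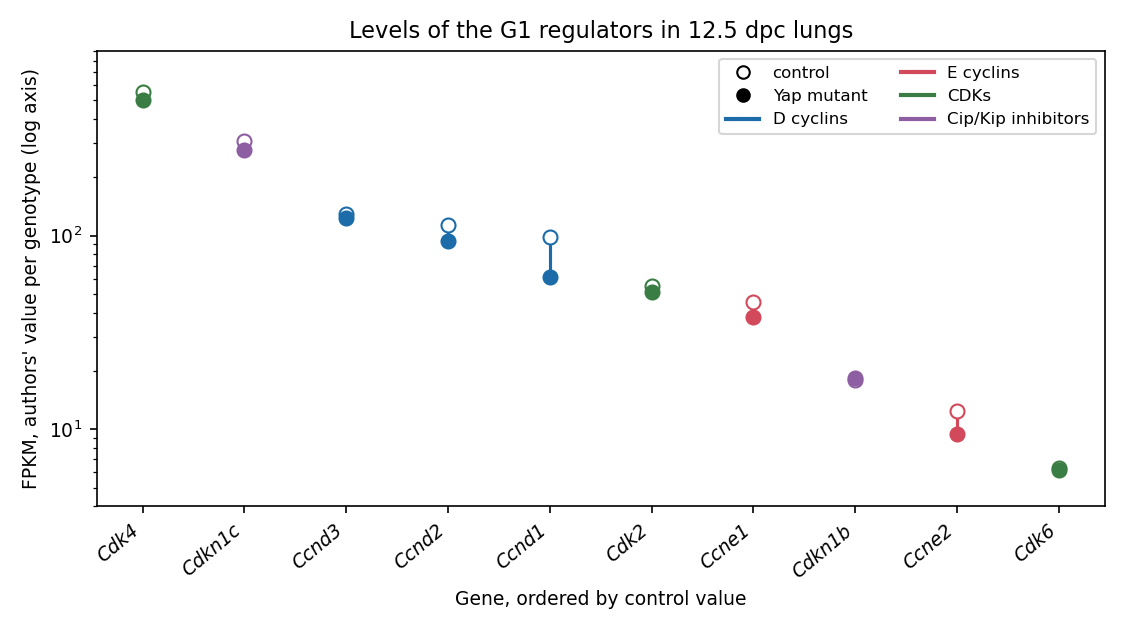
Levels of the 10 genes in FPKM on a log axis, ordered by the control value, with open circles for control and filled circles for *Yap* mutant lungs (the authors' single value per genotype, with no error available). The longest line is that of *Ccnd1*, from 98.9 to 61.3 FPKM, while the circles nearly coincide for *Cdkn1b* and *Cdk6*.

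The values below were compared as the log2 ratio of *Yap* mutant over control after adding 0.1 FPKM to both. All 10 genes passed the minimum of 1 FPKM for the mean of both genotypes, as did 12716 loci in all. The members' log2 ratios had a median of -0.15, beside -0.01 over all 12716 loci. Of the members, 9 of 10 had a lower value in *Yap* mutant lungs, as had 51.8% of all loci. When each genotype was scaled to the same total, 8 of 10 members and 39.9% of all loci were lower, the change of side being that of *Cdk6* (log2 ratio -0.03 as deposited and 0.0101 when scaled). Lower by at least 20% were 2 of 10 members, *Ccnd1* and *Ccne2*, beside 6.8% of all loci. At least 1.5-fold lower was 1 of 10, *Ccnd1*, beside 3.3% of all loci. No member (0 of 10) was higher by at least 25%, the same fold in the other direction, beside 9.63% of all loci, and 4.44% of all loci were at least 1.5-fold higher.

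**Figure D2:**
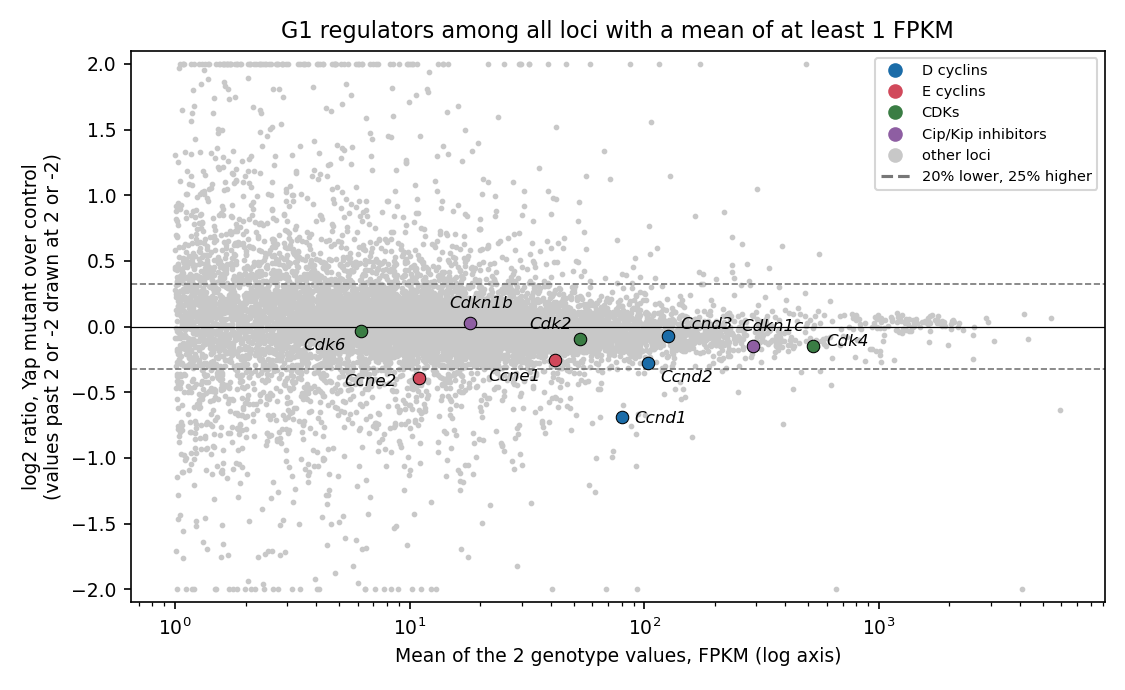
Log2 ratio of *Yap* mutant over control lungs against the mean FPKM (log axis) for the 12716 loci that passed the minimum mean, with grey points for all loci, coloured points for the 10 genes by family, values past 2 or -2 drawn at 2 or -2, and dashed lines at 20% lower and 25% higher. *Ccnd1* (-0.69) lies farthest below zero among the members, *Ccne2* (-0.39) lies just past the dashed line, and *Cdkn1b* (0.03) is the only member above zero as deposited.

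*Ccnd1* had the largest difference among the D cyclin genes, and *Ccnd3* the smallest. *Ccnd1*, which encodes cyclin D1 and lies on the minus strand of chromosome 7 from 144929931 to 144939925 (mm10), had 98.9 FPKM in control against 61.3 FPKM in mutant lungs. This is 38.1% lower, a log2 ratio of -0.69. Of the 12716 loci, 2.62% had a lower log2 ratio than *Ccnd1*. Among the 1374 loci with a mean between 50 and 200 FPKM, a range chosen after the values were seen, 13 (0.946%) had a log2 ratio as low or lower. *Ccnd2*, the cyclin D2 gene on the minus strand of chromosome 6, had 113 FPKM in control against 93.6 FPKM in mutant lungs, a log2 ratio of -0.28. *Ccnd3*, the cyclin D3 gene on the plus strand of chromosome 17, had 129 FPKM in control against 123 FPKM in mutant lungs, a log2 ratio of -0.07. The 3 genes thus had control values close to each other and unequal differences.

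Summed over the D cyclins, the level was 341 FPKM in control against 278 FPKM in mutant lungs, 18.6% lower. The makeup of this sum differed as well. *Ccnd1* made up 29.0% of it in control and 22.0% in *Yap* mutant lungs, while *Ccnd3* made up 37.8% and 44.3%. The share of *Ccnd2* was 33.2% and 33.7%. These shares lie within a genotype and do not depend on how the genotypes are scaled.

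**Figure D3:**
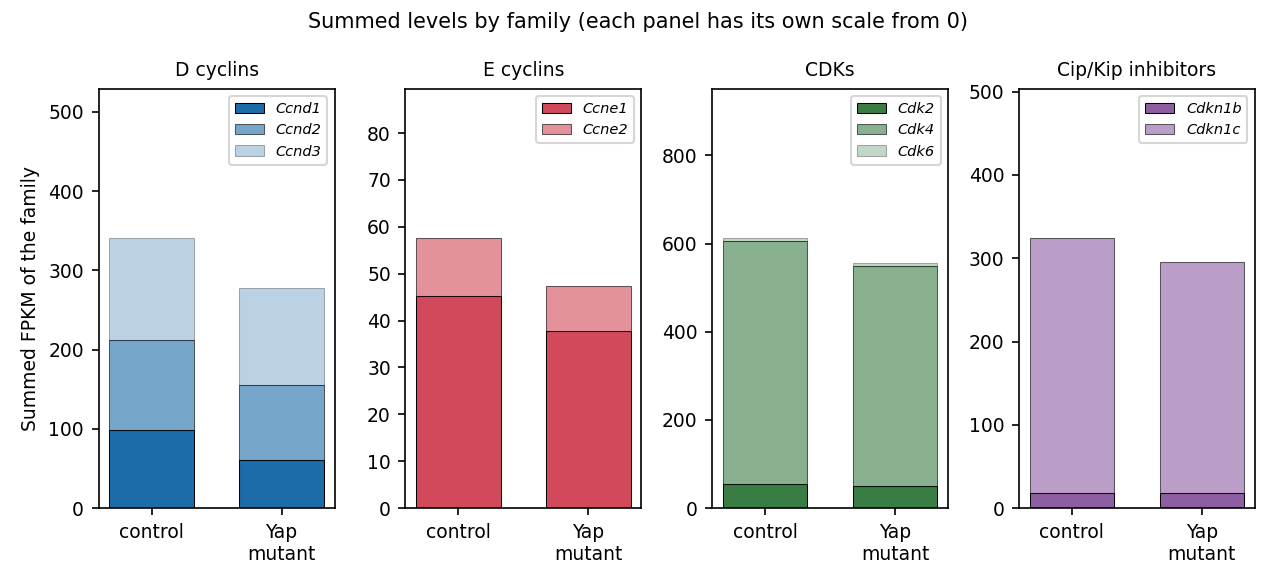
Summed FPKM of the D cyclin, E cyclin, CDK and Cip/Kip genes in control and *Yap* mutant lungs, stacked by gene, with a separate linear axis from 0 in each panel and no error available. The D and E cyclin sums are 18.6% and 17.9% lower in *Yap* mutant lungs, and the CDK and Cip/Kip sums, made up mostly of *Cdk4* and *Cdkn1c*, are 9.31% and 8.94% lower.

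Both E cyclin genes had lower values in *Yap* mutant lungs. *Ccne1* (cyclin E1, minus strand of chromosome 7 from 38097984 to 38107490), whose upstream window with 4 GC boxes is shown above, had 45.2 FPKM in control against 37.9 FPKM in mutant lungs. Its log2 ratio was -0.26, a value 16.3% lower. *Ccne2* (cyclin E2, plus strand of chromosome 4) was lower in level and differed more, with 12.4 FPKM in control against 9.48 FPKM in mutant lungs. Its log2 ratio was -0.39, a value 23.8% lower. *Ccne1* made up 78.4% of the E cyclin sum in control and 80.0% in *Yap* mutant lungs, and the sum was 57.7 FPKM and 47.3 FPKM.

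The 3 kinase genes had log2 ratios between -0.15 and -0.03. *Cdk4* (chromosome 10, plus strand), the gene with 4 E-boxes before its start, had a log2 ratio of -0.15 and was 9.68% lower in *Yap* mutant lungs. *Cdk6* (chromosome 5, plus strand), whose product also pairs with D cyclins, was at a small fraction of the level of *Cdk4*, the FPKM of *Cdk4* being 87.7 times that of *Cdk6* in control lungs and 81.1 times in *Yap* mutant lungs. *Cdk2* (chromosome 10, minus strand), the partner of the E cyclins, had 54.8 FPKM in control against 51.3 FPKM in mutant lungs, a log2 ratio of -0.10. The summed D cyclin level was 0.611 of the summed level of *Cdk4* and *Cdk6* in control lungs and 0.550 in *Yap* mutant lungs. For the E cyclins over *Cdk2*, the ratio of levels was 1.05 in control and 0.923 in *Yap* mutant lungs. Ratios of RNA levels say nothing of the amounts of protein complexes.

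The Cip/Kip inhibitor genes had log2 ratios of 0.03 and -0.15. *Cdkn1b* (p27, chromosome 6, plus strand) had 17.9 FPKM in control against 18.3 FPKM in mutant lungs, a log2 ratio of 0.03. *Cdkn1c* (p57, chromosome 7, minus strand), an imprinted gene expressed from the maternal allele, was the second highest member, with 307 FPKM in control against 277 FPKM in mutant lungs and a log2 ratio of -0.15. It made up 94.5% of the summed level of both inhibitors in control and 93.8% in *Yap* mutant lungs. The inhibitors summed to 0.814 of the summed level of the 5 cyclins in control lungs and to 0.909 in *Yap* mutant lungs.

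Several loci overlap a gene on the opposite strand, and these neighbours are named for their position. The libraries were made with a stranded kit, but whether strand was used in counting is not given in the sources used here. In GENCODE M21, *Cdk4* shares 641 of its exonic bases (31.2%) with *Tspan31*, which had 62.6 FPKM in control against 63.4 FPKM in mutant lungs. *Ccnd1* shares 818 exonic bases (21.9%) with *Oraov1*, at 10.3 and 10.8 FPKM. *Ccnd3* shares 361 (14.8%) with *Bysl*, at 24.7 and 22.6 FPKM. *Ccne2* shares 336 (10.5%) with *Ints8*, at 35.1 FPKM in control against 32.0 FPKM in mutant lungs. *Ints8* was thus higher in level than *Ccne2*, and how much of the *Ccne2* value came from shared bases was not tested. The *Ccne2* locus also ends at 11254259, while GENCODE ends the gene at 11204779. For *Ccnd2* these ends are 127212419 and 127152193, and for *Ccnd3* 47611492 and 47599691. What the longer loci add to the values was not tested. *Cdkn1c* shares 589 exonic bases (30.3%) with the antisense gene *Gm44732*, and *Ccnd2* shares 372 (5.54%) with the antisense gene *Gm43126*. *Ccne1* and *Cdkn1b* overlap no other gene there.

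The other genes of the pathway were read from lists of inhibitors, pocket proteins, E2F factors, later cyclins, CDK activators, ubiquitin ligase parts, mitogen-response factors and E2F target genes. Of 74 such genes that are not members, 69 had a mean of at least 1 FPKM. Their log2 ratios had a median of -0.16, and 56 of the 69 were lower in *Yap* mutant lungs as deposited and 53 when scaled to the same total. Over all loci these shares were 51.8% and 39.9%, which also stand beside the counts of lower genes in each list below. Lower by at least 20% were 4 of the 69 and higher by at least 25% were 3, beside the 6.8% and 9.63% of all loci above. Both shares also stand beside such counts in each list below. These 7 genes were singled out after their values were seen.

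Among the inhibitors outside the members, *Cdkn2c* (p18, which binds CDK4 and CDK6) had 4.0 FPKM in control against 2.57 FPKM in mutant lungs, a log2 ratio of -0.62. *Cdkn1a* (p21) had 2.36 and 3.13 FPKM, a log2 ratio of 0.40. *Cdkn2d* (p19) had 15.5 and 14.8 FPKM, a log2 ratio of -0.07. *Cdkn2a* and *Cdkn2b* were under the minimum mean, with *Cdkn2a* at 0.0249 and 0.148 FPKM and *Cdkn2b* at 0.0657 and 0.563 FPKM in control and mutant lungs. These inhibitors did not all differ in 1 direction, and all were low beside *Cdkn1c*.

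The pocket proteins, which hold E2F inactive, had log2 ratios of 0.17 for *Rb1*, 0.10 for *Rbl2* and -0.15 for *Rbl1*. Of the E2F and DP genes, 9 of 10 were lower, as deposited and when scaled to the same total, with a median of -0.17. *E2f1* had 22.1 FPKM in control against 18.1 FPKM in mutant lungs, a log2 ratio of -0.29. *E2f2* had 4.96 and 3.83 FPKM (-0.37 on the log2 scale), and *E2f3* had 24.5 and 23.1 FPKM (-0.09). Of the activating factors, *E2f2* was thus the 1 lower by at least 20%.

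The E2F target list of 22 genes holds *Ccne1*, *Ccne2*, *E2f1*, *Rbl1* and *Ccna2* as well as replication genes. All 22 were lower in *Yap* mutant lungs as deposited and 21 when scaled to the same total, with a median log2 ratio of -0.20 as deposited. *Ccne2* and *Cdc6*, which loads the replicative helicase, were the 2 lower by at least 20%. *Cdc6* had 15.7 FPKM in control against 11.9 FPKM in mutant lungs. *Ccna2*, *Ccnb1*, *Ccnb2*, *Ccnf* and *Cdk1*, which act in S phase and mitosis, had log2 ratios between -0.19 and -0.04. Of 10 CDK activators and adaptors and 14 ubiquitin ligase parts, 0 were lower by 20% or higher by 25%, and their medians were -0.15 and -0.07.

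Factors known to act upstream of the D cyclins differed in both directions. *Jun*, part of the AP-1 factor, had 36.4 FPKM in control against 21.2 FPKM in mutant lungs, a log2 ratio of -0.77. *Myc* had 35.4 FPKM in control against 49.7 FPKM in mutant lungs, a log2 ratio of 0.49. *Mycn* had 29.7 and 24.7 FPKM, a log2 ratio of -0.27. *Egr1*, an immediate early gene, had 3.45 and 4.61 FPKM, a log2 ratio of 0.41. *Jun* and *Myc* thus had the lowest and the highest log2 ratio among the 69 genes. *Mycn* was named after its value was seen.

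**Figure D4:**
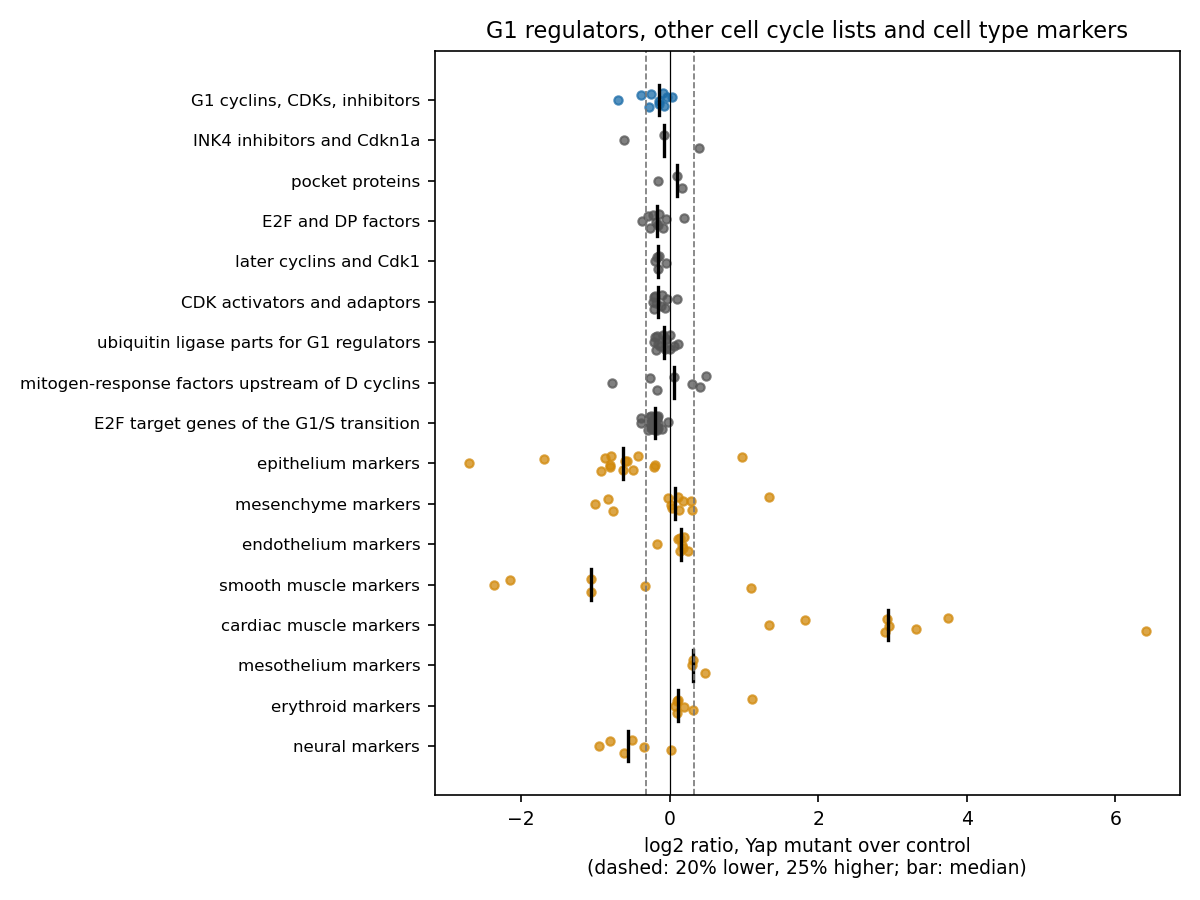
Log2 ratio of *Yap* mutant over control lungs for each gene past the minimum mean, with blue points for the 10 G1 genes, grey for the other cell cycle lists, orange for cell type markers, black bars for medians and dashed lines at 20% lower and 25% higher. The G1 genes and the cell cycle lists have medians from -0.20 to 0.10, with single genes from -0.77 (*Jun*) to 0.49 (*Myc*). The 25th and 75th percentiles of all loci past the minimum mean are -0.11 and 0.11. The epithelium markers have a median of -0.63 and the cardiac muscle markers one of 2.94.

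RNA came from whole lungs, so fewer cells of a type and less RNA per cell cannot be told apart. *Yap1* itself had 76.1 FPKM in control against 65.6 FPKM in mutant lungs. Of 15 epithelium markers, 14 were lower in *Yap* mutant lungs, 12 of them by at least 20%, beside 51.8% and 6.8% of all loci. Both shares also stand beside the counts for the other cell types below. The summed level of the epithelium markers was 460 FPKM in control against 332 FPKM in mutant lungs. The median log2 ratio of these markers, -0.63, stands beside -0.69 for *Ccnd1*, but single markers differed widely. They ran from -2.71 for *Shh*, whose locus carries Cre in the mutants, to 0.97 for *Sftpc*, the 1 marker that was higher. *Cdh1* had a log2 ratio of -0.20 and *Epcam* one of -0.43. Smooth muscle and neural markers had median log2 ratios of -1.06 and -0.56. Medians for the other cell types ran from 0.07 to 2.94. The part of the epithelium, or of any other cell type, in the lower *Ccnd1* was not tested. For 12 mesenchyme markers the sum, most of it from 3 collagen genes, was 1328 and 1322 FPKM, but single markers differed in both directions. *Foxf1* had 83.5 and 41.6 FPKM, *Wnt2* 46.5 and 27.3 FPKM, *Twist2* 20.1 and 11.3 FPKM and *Fgf10* 10.4 and 26.6 FPKM in control and mutant lungs. For 8 endothelium markers, 7 of them higher in mutant lungs, the sum was 172 and 189 FPKM. Smooth muscle markers summed to 283 and 145 FPKM, with 5 of 6 lower by at least 20% and *Des*, which cardiac muscle also expresses, at 17.6 and 37.7 FPKM. Of 6 neural markers, 5 were lower by at least 20%. The neural markers summed to 19.5 and 13.0 FPKM, mesothelium markers (4 genes) to 51.6 and 65.2 FPKM, and erythroid markers (8 loci) to 5731 and 6165 FPKM. All 8 cardiac muscle markers were higher in *Yap* mutant lungs, with sums of 98.9 and 671 FPKM, and no marker of any list was at 0 in either genotype. Of the Y-linked genes *Uty*, *Kdm5d*, *Eif2s3y* and *Ddx3y*, the highest control level was 0.0163 FPKM and the lowest mutant level 4.61 FPKM. *Xist*, which is expressed from the inactive X chromosome of females, had 97.0 FPKM in control against 50.4 FPKM in mutant lungs. Y-linked RNA was thus nearly absent from control and present in mutant lungs, so the genotypes differed in the sex of their embryos. An effect of sex and an effect of genotype cannot be told apart in these values. How many mutant libraries held male embryos is unknown. The part of heart, mesenchyme and smooth muscle tissue in the members' values was not tested.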

How the data were processed

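Whole-lung RNA from 3 control and 3 *Yap* mutant samples at 12.5 *dpc* was sequenced from stranded paired-end libraries. The submitters' processing notes name TopHat, Cuffdiff and mm10, without versions. The FPKM values deposited by the authors are 1 per genotype. The header of the table does not name the unit, which was read from its Cuffdiff layout. The tables also hold the authors' own fold changes and p-values, which were not used. A second table of 2395 loci served only as an alternative source of values. No column belonged to other samples.

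Log2 ratios were computed over all loci with a pseudocount of 0.1 FPKM, which understates the change of low genes, and those whose mean reached 1 FPKM were counted, with 20% lower or 25% higher as the size of difference. With 1 value per genotype no test was made and no depth is known. The calculation was tested on simulated data. Locus starts, counted from 0 in the table, were given 1 more. The members and lists were chosen with earlier results of these data known. Named genes are the members, *Yap1*, the other Cip/Kip and INK4 genes, pocket proteins, activating E2Fs and cell cycle list genes past 1.5-fold. Other list genes, markers, sex-linked genes and neighbours were named after their values were seen. Python 3.11.15, numpy 2.4.6, pandas 2.3.3 and matplotlib 3.10.9 were used.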

Additional observations from a re-analysis of the deposited data

How the results depend on the processing

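The members' log2 ratios, their median and the counts were recomputed with a pseudocount of 1 FPKM or none, with the genotypes scaled to the same total or to the 75th percentile, with ratios centred on the median of all loci, with the values of the second table, and for the counts also at 1.5-fold and with no filter or a minimum mean of 5 FPKM. A ratio was taken as moved when it changed sign, crossed 20% lower or 25% higher or shifted by over 0.1 on the log2 scale, a count when it changed by over 1.5 times and a share when it changed by over 1 percentage point. *Cdk6* was the 1 member that moved, to 0.0101 when scaled to the same total. At 1.5-fold, the count of members lower was 1 in place of 2, and of the other cell cycle genes 2 were lower and 0 higher, in place of 4 and 3. With no filter on the mean, 5 of these genes were higher. With a minimum mean of 5 FPKM, 2 were lower and 1 higher. The second table changed none of the values recomputed here, but it is no independent check. Of its 2395 loci, 25 differed from the first table by over 1%, and 0 of these were members or cell cycle list genes. Leaving out a library could not be done, since each genotype has 1 value. No paired analysis was possible because the table holds no values per replicate. The precision of every value is unknown for the same reason.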

Other observations

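Other cyclin, CDK and CDK inhibitor genes were found by symbol after the values were seen. Of 35 such loci, 29 reached the minimum mean of 1 FPKM, 19 of them lower and 10 higher in *Yap* mutant lungs, beside 51.8% of all loci lower. Their median log2 ratio was -0.03. None (0 of 29) was lower by at least 20%, and 1 was higher by at least 25%, beside 6.8% and 9.63% of all loci. That gene, *Ccng1*, which encodes cyclin G1 and is a known target of p53, had 17.1 FPKM in control against 21.8 FPKM in mutant lungs. *Ccno*, which is known for its role in making multiciliated cells, was just under the minimum mean, with 1.70 FPKM in control against 0.276 FPKM in mutant lungs. *Ccni*, the highest of these genes, had 131 FPKM in control against 132 FPKM in mutant lungs.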
